A study of Mus musculus with 6 samples.

Results

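The genes of fatty acid oxidation were examined in microglia taken from mice with acute ischemic stroke (AIS), with or without added PGC-1α. They were 39 genes of this pathway, chosen as a pathway but with earlier results of these data known. They were found by matching the accession of each array probe to a RefSeq symbol, and 23462 genes were named on the array in this way. All 39 had a probe, together they had 60 probes, and all 39 could be tested, among 18222 genes tested. The groups were 3 samples from control PGC-1α f/f mice and 3 from mPGC-1α mice, all labelled as male and 10 weeks old, on a C57BL/6 background. Both groups carried a floxed PGC-1α allele linked to eGFP, and mPGC-1α mice also carried a tamoxifen-inducible Cre driven by Cx3cr1, whose activity is not limited to microglia within the myeloid lineage. Per the methods, the mice received tamoxifen, transient middle cerebral artery occlusion followed, and microglia were picked by magnetic selection for the receptor P2RY12. The labels do not give the time after stroke, or say whether each sample came from a separate animal or a pool, so p-values measure the spread between these samples, which may be technical. Each sample was hybridised to 1 single-colour Agilent array, and a level here is the log2 intensity of a probe minus the 75th percentile of its array, so that 0 is the percentile itself. In such bulk samples, fewer cells of a type and less RNA per cell cannot be told apart.

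Fatty acid β-oxidation breaks a fatty acid down to acetyl-CoA in the mitochondrion. The chain is first joined to coenzyme A, carried through the mitochondrial membranes on carnitine, and then shortened in repeated cycles of dehydrogenation, hydration, a further dehydrogenation and thiolysis, with its electrons passed on through the electron transfer flavoprotein. PGC-1α is a coactivator that binds no DNA of its own and is known, in muscle, heart and liver, for raising many of these genes through the estrogen-related receptors (ERRs) and the peroxisome proliferator-activated receptors (PPARs). Microglia use glucose and fatty acids, and the balance is known to shift with their state.

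No gene of the pathway was called different between mPGC-1α and control microglia. With limma and Benjamini-Hochberg adjustment over all probes, 0 of the 58 tested probes of these genes passed an adjusted p of 0.05, as did 0 of all 40745 probes tested (0%). For each gene, the probe with the highest mean level among those tested was taken first and is called its brightest probe below. On these probes 18 genes were higher and 21 lower in the mPGC-1α group, while 61.7% of all genes were above 0. The median difference over the 39 genes was -0.01 on the log2 scale, beside 0.09 over all genes, and 27 of the 39 lay below the median of all genes. The single differences ran from -1.27 for Hadhb to 0.39 for Eci2, with standard errors of 0.17 to 0.48. On these brightest probes, the 95% interval of the difference stayed below a 2-fold rise for 38 of the 39 genes and above a 2-fold fall for 35. Of all 18222 genes, 15154 and 15152 did so. The intervals of some other probes of these genes reached past a 2-fold fall, that of Cpt2 to -4.57. At an unadjusted p under 0.05 there were 0 genes higher and 2 lower, Hadhb and Slc25a20, where 2.97% of all genes were higher and 2.97% lower. Of the 32 genes measured on all 6 arrays, the levels of 2 (Acsl4 and Eci2) were higher on every mPGC-1α array than on every control array, and 0 were lower on every one. Among all genes 7.34% were separated upward and 3.87% downward, so both shares were near the background.

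**Figure D1:**
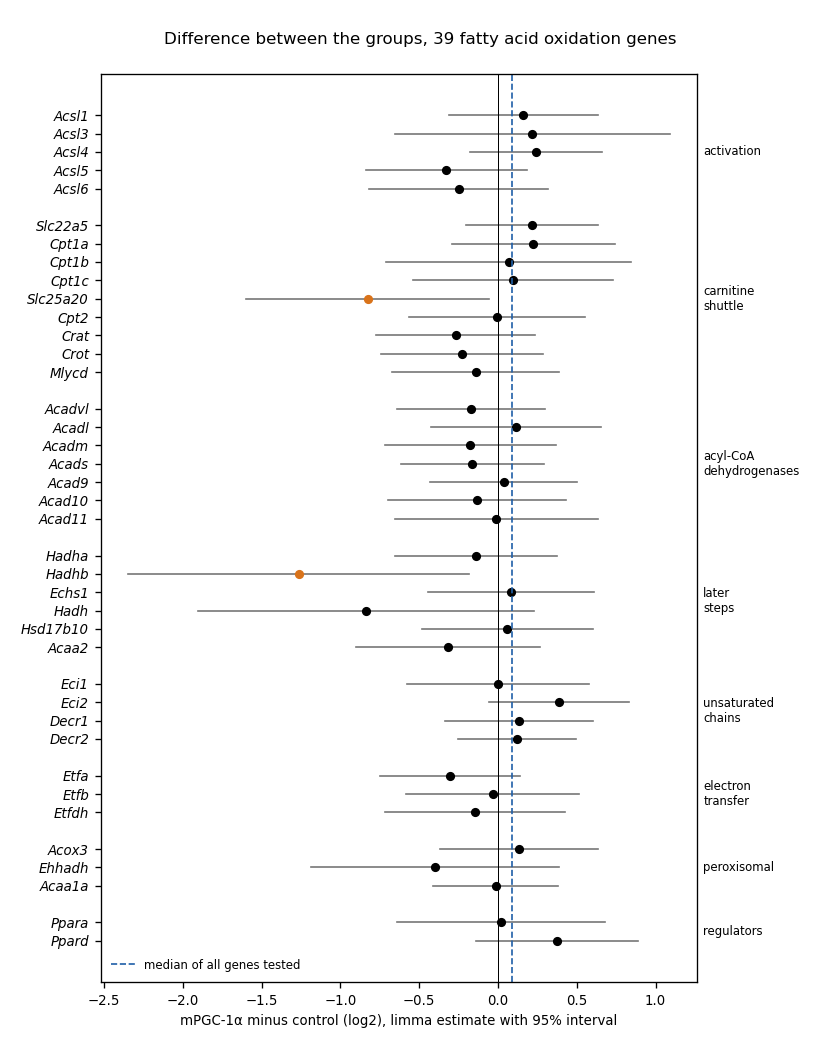
The difference between mPGC-1α and control arrays (horizontal axis, log2) is drawn for the brightest tested probe of each of the 39 genes, grouped by role, with its 95% interval from limma. Hadhb and Slc25a20, in orange, had an unadjusted p under 0.05, and the dashed line marks the median of all genes tested, 0.09.

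The labels and the arrays were not fully in accord, and this bears on every difference below. The probe of Ppargc1a, the gene for PGC-1α, stood at -1.44, -0.94 and -0.93 on control arrays 1, 2 and 3 and at -1.49, -1.27 and -1.54 on mPGC-1α arrays 1, 2 and 3. Its difference was -0.33 (SE 0.24, adjusted p = 0.817), so a higher level in the mPGC-1α group was not measured on this probe. Where the probe lies in the gene was not known, so whether it reads the added PGC-1α was not tested. The paper reports more PGC-1α in mPGC-1α microglia by immunostaining and by qRT-PCR, on material other than these arrays. The name mPGC-1α below is that of the group as labelled. Cx3cr1 stood at 3.81, 3.28 and 3.71 on control arrays and at 2.38, 1.95 and 2.72 on mPGC-1α arrays, lower on each of the latter. Its difference was -1.25 (unadjusted p = 0.000525, adjusted p = 0.669 by limma). Its locus carries the Cre in mPGC-1α mice, so a lower level there does not go against the labels. Xist, the transcript of the inactive X chromosome, stood at -5.21 on control array 2 and between -0.97 and -0.51 on the other 5 arrays, and Y-linked Ddx3y and Uty had a probe well above background only on that same array. Among further Y-linked probes, a Kdm5d probe was well above background on all 6 arrays and an Eif2s3y probe also on control array 1, at -6.40, while the highest probes of both genes (-1.93 and -0.35) were above it on control array 2 alone. Xist at these levels goes against the male label of the other 5 arrays. Across these arrays 71.0% to 86.5% of spots were well above background and no spot was saturated. The first 2 samples of each group shared a slide, and the third of each lay on another.

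Markers of neurons, astrocytes and oligodendrocytes were mostly higher in the mPGC-1α group, but 0 of them were called by limma after adjustment. Over all genes 61.7% were higher, and 2.97% were higher at an unadjusted p under 0.05. Of 12 neuronal markers 11 were higher in the mPGC-1α group (7 at an unadjusted p under 0.05), of 11 astrocyte markers tested 9 were (5), and of 12 oligodendrocyte markers all 12 were (5). The sums given here cover all 12 markers of each list, tested or not, and keep spots marked as outliers. The summed linear level of the oligodendrocyte markers was 13.03 to 19.7 on control arrays and 23.4 to 34.5 on mPGC-1α arrays. The sums were 32.1 to 52.4 and 50.7 to 59.9 for the neuronal markers, and 14.7 to 20.7 and 20.1 to 53.9 for the astrocyte markers. Most of the neuronal sum was Snap25 alone (difference 0.28, unadjusted p = 0.223 by limma). Most of the endothelial and mural sum given below was Acta2 alone (difference 0.07). Of 10 microglial markers tested 4 were higher, with sums of 197 to 222 in controls and 198 to 221 in mPGC-1α arrays, so the labelled cell type was present on every array. Of 12 monocyte and macrophage markers 2 were higher (sums of 53.7 to 86.8 and 49.1 to 90.9), and of 9 endothelial and mural markers tested 7 were (25.5 to 25.7 and 25.7 to 26.9), while the 12 markers of that list included 2, Tek and Rgs5, that were not well above background on any array. The part of these other cells in the differences below was not tested.

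Short stretches of promoter are shown because PGC-1α is carried to its targets by ERRs and PPARs. Of the 39 genes, 34 had a promoter window in the RefSeq table for GRCm38, 250 bases before to 50 after a start (Cpt1b, Crat, Acad9, Acaa2 and Decr1 had none). Both strands were searched. The ERR sequence TCAAGGTCA was found in 1 of the 34 genes (2.94%), Acsl6, and in 0.466% of all 27025 genes in the table. Its shorter core AAGGTCA, contained in the longer one, was found in 2 (5.88%), Acsl6 and Acadm, and in 5.38% of all genes. The still shorter AGGTCA lay in 6 (17.6%) against 18.1% of all, and the spaced repeat AGGTCANAGGTCA bound by PPARs in 0, against 0.0481%. Below, each match to AAGGTCA or the longer sequence is in capitals, in the direction of the gene, where it reads as the reverse complement. The Acsl6 stretch lies at chr11:54303612-54303710 on the plus strand, with the longer match beginning 167 and a further core 189 bases before the start, and the Acadm stretch at chr3:153944841-153944893 on the minus strand, 249 bases before the start.
Acsl6: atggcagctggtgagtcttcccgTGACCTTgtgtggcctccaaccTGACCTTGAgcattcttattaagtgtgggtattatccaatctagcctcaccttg
Acadm: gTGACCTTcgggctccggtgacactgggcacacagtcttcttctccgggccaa
A match is a description of these windows and not a measured binding site.

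Activation was carried by 5 long-chain acyl-CoA synthetases, of which 3 were higher and 2 lower in the mPGC-1α group (median 0.16). Acsl4, which favours polyunsaturated chains such as arachidonic acid, stood at 0.52, 0.61 and 0.59 on control arrays 1 to 3 and at 0.91, 0.80 and 0.73 on mPGC-1α arrays 1 to 3. All mPGC-1α arrays lay above all control arrays, by 0.24 on average (SE 0.19, adjusted p = 0.827 by limma). An exact two-sided permutation test gave p = 0.1, the smallest that 3 against 3 allows; with exchange only within same-numbered pairs the smallest would be 0.25. The difference was 0.29 on the first slide and 0.14 on the second. Its other probes did not share this order: they differed by -0.29 and -0.19, with overlapping groups. Acsl6, a synthetase known for docosahexaenoic acid in the brain and the gene with the ERR match, stood at -0.12, 0.01 and 0.51 against -0.28, 0.22 and -0.29 (difference -0.25, SE 0.25, adjusted p = 0.874). Acsl1 (0.16), Acsl3 (0.22, on 5 arrays) and Acsl5 (-0.33) had overlapping groups.

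Of the 9 genes of the carnitine shuttle and its control, 4 were higher and 5 lower (median -0.01). Cpt1a, the outer membrane enzyme that loads chains on carnitine and sets the pace of import, stood at 1.35, 1.79 and 1.28 on control arrays and at 1.38, 1.96 and 1.75 on mPGC-1α arrays. The groups overlapped, and the difference was 0.22 (SE 0.23, 95% interval -0.29 to 0.74, adjusted p = 0.876). Slc25a20, the translocase that swaps acylcarnitine for carnitine across the inner membrane, stood at -0.32, -1.54 and -0.51 on control arrays and at -1.91, -1.35 and -1.59 on mPGC-1α arrays. Control arrays 1 and 3 were high, and control array 2 was as low as the mPGC-1α arrays, so the groups overlapped. The difference was -0.83 (SE 0.34, unadjusted p = 0.038, adjusted p = 0.686), and -0.70 and -1.09 within the slides. Cpt2, which hands the chain back to coenzyme A at the inner membrane, stood on its brightest probe at 0.28, 1.00 and 0.48 against 0.31, 0.77 and 0.66, with overlapping groups (difference -0.01, 95% interval -0.56 to 0.55, adjusted p = 0.997).

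The remaining genes of the shuttle did not pass the test either. Slc22a5, the carnitine transporter of the plasma membrane, differed by 0.21, the muscle form Cpt1b by 0.07, and the neuronal form Cpt1c by 0.10. Crat (-0.27) and Crot (-0.23), which move short chains and peroxisomal chains on carnitine, and Mlycd (-0.14), which removes the Cpt1 inhibitor malonyl-CoA, were on the lower side. Crat was measured on 5 arrays, and its 2 control values, 1.12 and 0.91, lay above the mPGC-1α values of 0.84, 0.68 and 0.73. The lowest adjusted p of these genes was 0.84, that of Crat.

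Of the 7 acyl-CoA dehydrogenases, which take the first electrons from chains of different length, 2 were higher and 5 lower (median -0.13). Acadvl, for very long chains, stood at 1.20, 1.40 and 1.42 on control arrays and at 0.87, 1.39 and 1.23 on mPGC-1α arrays, a difference of -0.17 (SE 0.21, adjusted p = 0.899). Acadm, for medium chains and with the shorter ERR letters in its window, stood at 0.48, 0.68 and 0.90 and, on mPGC-1α arrays 1 and 2, at 0.46 and 0.57; the spot of mPGC-1α array 3 was marked as an outlier and left out. The groups overlapped for both genes, and the Acadm difference was -0.18 (SE 0.24, adjusted p = 0.914). Acadl (0.12), Acads (-0.16), Acad9 (0.04), Acad10 (-0.13) and Acad11 (-0.01) lay as close to 0, and the lowest unadjusted p on the brightest probes of the dehydrogenases was 0.429.

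The 6 genes of the later steps, hydration, the further dehydrogenation and thiolysis, all lay below the median of all genes (median -0.23), with 2 higher and 4 lower than 0. Hadhb encodes the thiolase subunit of the mitochondrial trifunctional protein. Its tested probe stood at 1.83, 0.08 and 2.29 on control arrays and at 0.26, 0.24 and -0.09 on mPGC-1α arrays. As for Slc25a20, control arrays 1 and 3 were high and control array 2 lay among the mPGC-1α arrays. The difference was -1.27, or 2.40-fold lower (SE 0.48, unadjusted p = 0.0267, adjusted p = 0.673), with -0.71 on the first slide and -2.38 on the second. A further, brighter Hadhb probe had too few unmarked spots to be tested and did not show the drop on control array 2. That probe stood at 2.00, 2.06 and 2.57 on control arrays and at 2.31 on mPGC-1α array 2. Hadha, the partner subunit that carries the hydratase and dehydrogenase activities, stood at -1.25, -0.90 and -1.24 against -1.40, -1.27 and -1.15 and differed by -0.14 (SE 0.23, adjusted p = 0.931).

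Hadh, the dehydrogenase for medium and short hydroxyacyl chains, was likewise high on control arrays 1 and 3. It stood at -0.43, -2.05 and -0.01 on control arrays and at -2.03, -1.51 and -1.48 on mPGC-1α arrays, so control array 2 was the lowest of all 6. The difference was -0.84 (SE 0.47, adjusted p = 0.77), and -0.53 and -1.46 within the slides. Echs1 (0.08), the hydratase of short chains, Hsd17b10 (0.06) and the thiolase Acaa2 (-0.32, adjusted p = 0.835) had overlapping groups.

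**Figure D2:**
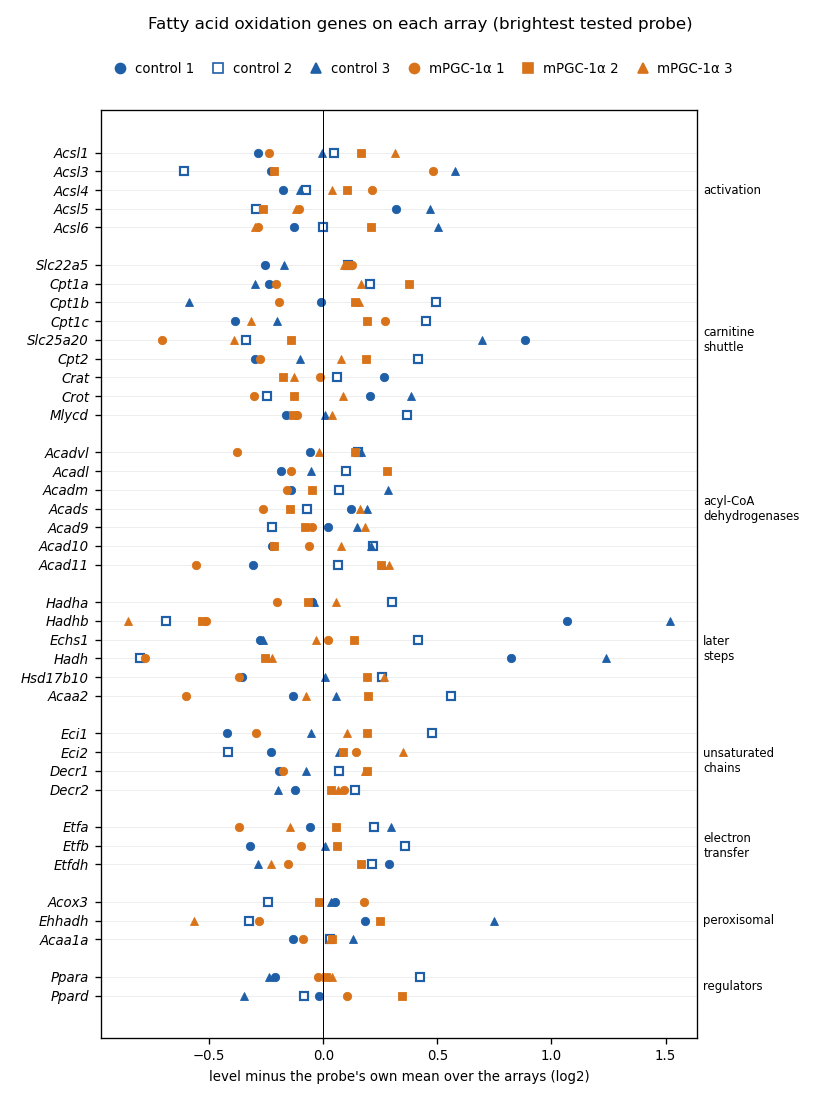
Each row is 1 gene and each mark 1 array, placed by the level of the brightest tested probe minus that probe's own mean over its arrays (log2), with control arrays in blue (array 2 open) and mPGC-1α arrays in orange. In Hadhb, Hadh and Slc25a20, control arrays 1 and 3 lie apart to the right and control array 2 lies with the mPGC-1α arrays, while most other rows mix both groups.

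The 4 enzymes for unsaturated chains were all higher than 0 (median 0.13), and 3 of them lay above the median of all genes. Eci2, an isomerase of double bonds found in peroxisomes and mitochondria, stood at 1.93, 1.75 and 2.23 on control arrays and at 2.31, 2.25 and 2.51 on mPGC-1α arrays. Every mPGC-1α array lay above every control array, the closest pair being 2.25 and 2.23. The difference was 0.39 (SE 0.20, adjusted p = 0.743; exact two-sided permutation p = 0.1), and 0.44 and 0.28 within the slides. Its other probe, on 4 arrays, differed by 0.30. The mitochondrial isomerase Eci1 (0.00) and the dienoyl-CoA reductases Decr1 (0.13) and Decr2 (0.12) had overlapping groups.

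The 3 genes of electron transfer were all lower than 0 (median -0.14). Etfdh, the oxidoreductase that passes electrons from the flavoprotein to ubiquinone, stood at -0.93, -1.01 and -1.51 against -1.38, -1.06 and -1.45, with overlapping groups (difference -0.14, SE 0.25, adjusted p = 0.936). The flavoprotein subunits differed by -0.31 (Etfa, adjusted p = 0.793) and -0.03 (Etfb), and neither passed the test. For Etfa, further probes differed by 0.13 and by -0.39 (adjusted p = 0.952 and 0.913 by limma).

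In the peroxisome, Acox3, an oxidase of branched chains, differed by 0.13, the bifunctional Ehhadh by -0.40 (SE 0.35, adjusted p = 0.848) and the thiolase Acaa1a by -0.02; Acaa1a has a near-identical copy, Acaa1b, which its probes may not tell apart. Ppara, the receptor that drives oxidation genes during fasting, stood at -3.57, -2.93 and -3.59 on control arrays and at -3.38, -3.34 and -3.32 on mPGC-1α arrays, a difference of 0.02 (95% interval -0.64 to 0.68, adjusted p = 0.994). Its other, brighter probe had 1 unmarked control spot and was not tested. That probe stood at -2.24 on control array 3 and at -1.47, -1.29 and -1.76 on the mPGC-1α arrays. Ppard, the widely expressed relative, stood at 1.61, 1.54 and 1.28 against 1.73 and 1.97, with mPGC-1α array 3 left out as an outlier. Both measured mPGC-1α arrays lay above the control arrays, and the difference was 0.38 (SE 0.22, adjusted p = 0.781).

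Probes of 1 gene often disagreed. Of the 39 genes 19 had more than 1 probe and 17 more than 1 tested. The 19 tested probes beside the brightest had a median difference of -0.39, with 16 lower and 3 higher, against -0.12 for such probes of all genes. At an unadjusted p under 0.05 there were 6 lower, in Cpt2, Acsl1, Acsl6, Acox3, Acad11 and Acaa1a, where the share over all genes was 12.9%. Of the 13 measured on every array 5 were lower on every mPGC-1α array (Cpt2, Acsl1, Acsl6, Acox3 and Crat), where the share was 10.7%. In 8 of the 17 genes a tested probe differed in sign from the brightest one.

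The other Cpt2 probe had the widest difference of the pathway. It stood at 0.04, -3.68 and 0.07 on control arrays and at -3.78, -3.85 and -3.94 on mPGC-1α arrays. Control arrays 1 and 3 stood far above the remaining 4, among which control array 2 was the highest. The difference was -2.66 (SE 0.85, unadjusted p = 0.0114, adjusted p = 0.669), while the brightest Cpt2 probe gave -0.01.

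The other Acsl1 probe stood at 0.34, -1.21 and 0.24 against -1.33, -1.24 and -1.31, a difference of -1.09 (adjusted p = 0.669), where the brightest probe gave 0.16. That of Acaa1a stood at 1.68, -0.13 and 1.66 against 0.09, -0.15 and 0.22 (difference -1.02, adjusted p = 0.69), where the brightest gave -0.02. The same arrays, control 1 and 3, were again the high ones. The second probe of Acsl6, at -1.33, -2.36 and -1.46 against -2.52, -2.72 and -2.77, differed by -0.95 (adjusted p = 0.669). That of Acad11, at -1.23, -2.14 and -0.61 against -2.70, -2.28 and -1.996, differed by -0.997 (adjusted p = 0.675). In Acox3 the order differed, since control array 1 alone was high: its second probe stood at -0.02, -1.33 and -0.97 against -1.65, -1.83 and -1.74, a difference of -0.97 (adjusted p = 0.669). The second probe of Crat differed by -0.54 with groups apart (adjusted p = 0.73), and the second of Acsl3 by 0.69 on 4 arrays (adjusted p = 0.708). Other probes of the opposite sign to the brightest were those of Acad9 (-0.19), Cpt1c (-0.18), Echs1 (-0.14) and Slc22a5 (-0.40), none near the threshold.

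**Figure D3:**
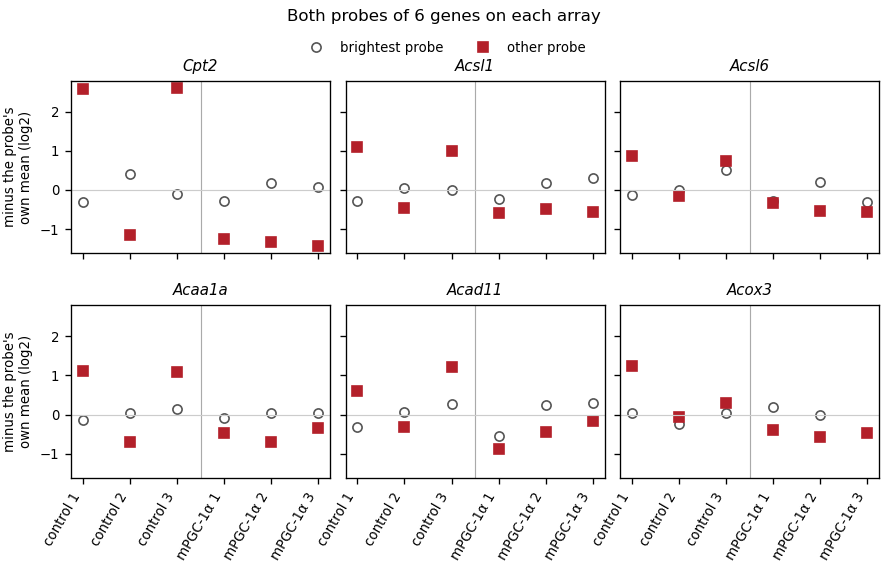
For 6 genes, the level of the brightest probe (open circles) and of the other probe (red squares) is drawn on each array as its distance from the probe's own mean (log2). In Cpt2, Acsl1, Acsl6, Acaa1a and Acad11 the other probe is highest on control arrays 1 and 3, while the brightest probe does not separate these arrays in the same way.

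Control array 2 was nearer to the mPGC-1α arrays than to the other controls, over the whole array as well as over the pathway. Across all tested probes with a value on every array, its Pearson correlation was 0.954 to 0.982 with the mPGC-1α arrays and 0.937 and 0.943 with control arrays 1 and 3, which correlated at 0.976 with each other; probes are not independent replicates. On the 32 brightest probes with all 6 values, the median absolute difference was 0.19 between control arrays 1 and 3, 0.44 and 0.49 between control array 2 and these, and 0.19 to 0.33 between control array 2 and the mPGC-1α arrays. On the 13 other probes with all values it was 0.13, 0.84 and 0.89, and 0.24 to 0.35, in the same order. Control array 2 was also the only array with a Ddx3y or Uty probe well above background. Why control array 2 stood with the mPGC-1α arrays was not tested.

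Calls appeared when that array was left out. Without control array 2, 8 of 53 tested probes of these genes were lower at an adjusted p under 0.05 by limma and 0 were higher, where 5.1% of all probes were lower and 0.318% higher. Among them were the dimmer probes of Cpt2 (-3.91, adjusted p = 0.000327), Acsl1 (-1.59), Acaa1a (-1.62), Acsl6 (-1.27) and Acad11 (-1.40). The others were the brightest tested probes of Hadhb (-1.93, adjusted p = 0.00223), Hadh (-1.45, adjusted p = 0.0163) and Slc25a20 (-1.20, adjusted p = 0.0242). The brighter, untested Hadhb probe did not show the drop on control array 2. On the brightest probes this was 3 of 38 genes, where 2.69% of all genes were lower. Leaving out any other array gave 0 calls, and without control array 3 the differences of Hadhb and Hadh shrank to -0.82 and -0.43. The median over these 38 genes was then 0.01, beside 0.21 over all genes.

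**Figure D4:**
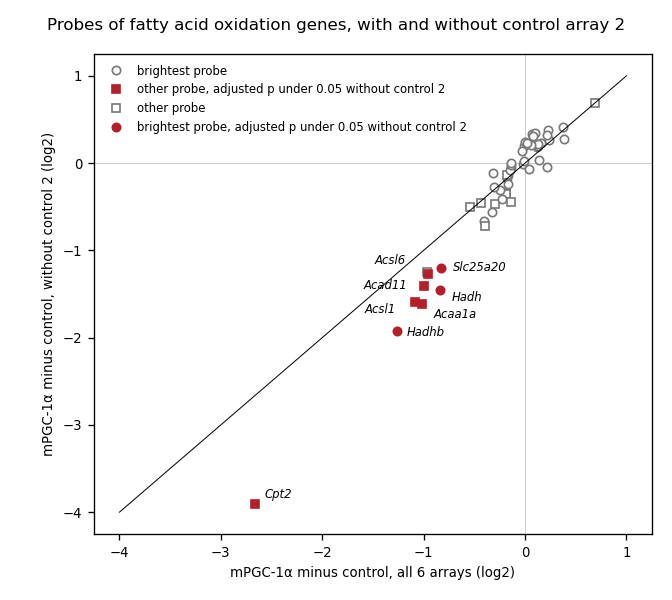
Each mark is 1 probe of the 39 genes, with its difference over all 6 arrays on the horizontal axis and without control array 2 on the vertical axis (both log2); the line marks equal values. The 8 filled marks passed an adjusted p of 0.05 without that array and all lie below the line, with Cpt2 at -2.66 and -3.91.

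With the replicate number fitted as a block, limma still called 0 of these probes, with 0% of all genes called higher and 0.00549% lower. When the percentile of each array was taken only over unmarked probes, together with the block, 4 probes were called lower. They were the dimmer ones of Cpt2 (-2.57), Acaa1a (-0.92) and Acsl1 (-0.99) and the brightest tested one of Hadhb (-1.17, adjusted p = 0.00453). There 4.22% of all probes were called in either direction, and the share called lower was not counted apart.

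Neighbouring pathways, taken as lists, had 0 called genes by limma; genes said to pass here had an unadjusted p under 0.05, as did 2.97% of all genes in each direction, and 61.7% of all genes were higher. Of 12 other peroxisomal oxidation genes 6 were higher and 6 lower, and 0 passed. Of 15 genes of uptake, storage and lipolysis 5 were higher and 10 lower. In that list Pnpla2, the lipase that starts the release of stored fat, stood at 2.52, 2.90 and 2.90 on control arrays and at 3.18, 3.19 and 3.28 on mPGC-1α arrays. All mPGC-1α arrays were above all control arrays (difference 0.44, SE 0.18, unadjusted p = 0.037, adjusted p = 0.686). Of 12 genes of fatty acid synthesis 8 were higher and 2 passed, Fasn (0.54) and Scd2 (0.98), each on 5 arrays and named after their values were seen. Of 5 ketone body genes 1 passed, Bdh1 (-0.81), and of 4 propionyl-CoA genes, all lower, 1 passed, Pcca (-0.89); both had overlapping groups and were likewise named afterwards. Of 14 tested PPAR partners and targets 10 were higher and 0 passed, among them Esrra, the gene for ERRα (0.37, adjusted p = 0.76).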

How the data were processed

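Total RNA was amplified, labelled and hybridised by the authors to Agilent 8 × 60 k v2 mouse arrays. Each deposited scanner file gives the intensity of every spot on a linear scale, from Agilent Feature Extraction 11.5.1.1, not normalised between arrays; the labels name Cy3 in one field and Cy5 in another, and the single green channel was used. The authors' series matrix holds log2 values normalised between arrays in GeneSpring for 46731 of 56605 probes; it served as an alternative.

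In R 4.3.3 with data.table (version 1.17.8), each array's 75th percentile over its 59305 non-control spots was subtracted from the log2 processed signal. Outlier spots, as marked by the scanner software, were then dropped and spots of a probe were averaged. The percentile was not taken after removing marked spots, since these differed in number between arrays and lowered it by 0.42 to 0.91 (log2). Probes were named through RefSeq accessions (59.7% of probes). A probe was tested where it was well above background on every array with a value in at least 1 group and had 2 or more values per group. The test was limma 3.58.1 (lmFit, eBayes with an intensity trend) with Benjamini-Hochberg adjustment over 40745 probes. The script was tested on simulated data. The number of arrays limits the precision.

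Deviations of same-numbered samples from their group means correlated at 0.25, 0.22 and 0.17, against -0.34 to 0.03 for other pairs. The numbers in the titles may therefore pair the samples. The main test, with its standard errors and p-values, left this pairing out, and the replicate block fitted it. At an unadjusted p under 0.05 by limma there were 1082 of 18222 genes in the main test and 1813 with the block. Of the 39 genes there were 2 and 3. The genes and lists were chosen with earlier results of these data known. Genes were given array by array where the groups did not overlap, the unadjusted p was under 0.05 or the difference reached 0.58, and always for Cpt1a, Cpt2, Acadvl, Acadm, Hadha, Etfdh, Ppara and Ppard; further probes where the sign differed or the unadjusted p was under 0.05; and genes of other lists where both the p and the separation held.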

Additional observations from a re-analysis of the deposited data

How the results depend on the processing

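The pathway kept 0 called probes when the arrays were quantile normalised, with normexp background correction, in the authors' series matrix, with or without a stricter filter on dim probes, with outlier spots kept, without the intensity trend, and with the slide or the replicate number as a block; the block by number changed no call of these genes by itself. With the replicate block the median difference was -0.01, as without it. Alternatives chosen after seeing the data were the percentile over unmarked probes and the replicate block on other scalings: with the former and the block 4 probes were called, with quantile normalisation and the block 0. Leaving out each array in turn gave 0 to 8 called probes, 0 to 4 genes at an unadjusted p under 0.05 and 4 to 12 genes with groups apart, the highest values each time without control array 2; with 2 arrays in a group separation is more frequent by construction. For other counts and values the cause was not tested.

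The count of genes at an unadjusted p under 0.05 became 4 when the probes of a gene were averaged, 4 under the block with quantile normalisation, 1 with the percentile over unmarked probes and 4 when this was joined to the block. The count with groups apart became 4 in the series matrix, 4 with outlier spots kept, and 1 with the percentile over unmarked probes, with or without the block. The median over the genes became -0.14 with averaged probes and otherwise moved by less than the spread between arrays. Of the 39 genes 33 kept their sign under the 3 other scalings. Of all 39, 25 also kept it in every leave-out where they could be tested, 9 higher and 16 lower. Crat, Acadl, Acadm, Acox3, Ppard, Acsl3 and Etfb could be tested in only 4 of the 6 leave-outs.

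Small differences changed sign, none of them called. Quantile normalisation, with or without the block, gave -0.026 for Hsd17b10, -0.082 for Eci1 and -0.032 for Decr2. Normexp gave -0.012 for Cpt1b, 0.11 for Mlycd, -0.070 for Eci1 and -0.022 for Decr2. The series matrix gave 0.0036 for Acad11, -0.020 for Hsd17b10, -0.079 for Eci1 and -0.015 for Decr2, and keeping outlier spots 0.0084 for Etfb. The percentile over unmarked probes, with or without the block, gave 0.088 for Cpt2, 0.084 for Acad11 and 0.079 for Acaa1a. Averaging the probes of a gene gave -0.46 for Acsl1, -0.082 for Acsl4, -0.091 for Slc22a5, -0.041 for Cpt1c, and -0.029 for Echs1, by construction through the dimmer probes. It gave 0.13 for Crat and -1.01 for Acox3, where the brightest probe lacked control array 3 or mPGC-1α array 3 and the average there held the dimmer probe alone, so these values and the counts from averaged probes carry that gap. With each array left out, differences ran from -0.042 to 0.55 for Acsl3, -0.21 to 0.33 for Cpt1b, -0.075 to 0.34 for Cpt1c, -0.16 to 0.20 for Cpt2, -0.26 to 0.0061 for Mlycd, -0.067 to 0.12 for Acad9, -0.17 to 0.26 for Acad11, -0.036 to 0.31 for Echs1, -0.10 to 0.26 for Hsd17b10, -0.21 to 0.24 for Eci1, -0.20 to 0.14 for Etfb, -0.086 to 0.045 for Acaa1a and -0.095 to 0.23 for Ppara.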
